A study of Mus musculus with 6 samples.

Results

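The Pax genes encode transcription factors that bind DNA through a paired domain. Expression of Pax1 to Pax9 was read from 9 array rows, 1 for each gene, out of 19938 genes measured in the series. The rows were taken by gene symbol alone, though the family was chosen with earlier results of these data known. No row that named several genes held a Pax symbol. The samples were mouse embryonic stem cells of the W4/129S6 background in which GFP had been placed at the Nkx2-1 locus as a reporter. Nkx2-1 encodes a homeodomain factor of lung, thyroid and ventral forebrain. After 14 days of differentiation they were sorted into GFP-positive cells (genotype label Nkx2-1GFP+, called Nkx2-1 high) and GFP-negative cells (genotype label Nkx2-1GFP-, called Nkx2-1 low), with 3 biological replicates in each group. All 6 samples carried the reporter, and the comparison asks which genes separate the fraction sought as lung and thyroid progenitors from the other cells of the same kind of culture.

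In mammals the Pax genes fall into 4 paralogue groups, Pax1 with Pax9, Pax2 with Pax5 and Pax8, Pax3 with Pax7, and Pax4 with Pax6. They differ in whether a homeodomain, a truncated homeodomain or none follows the paired domain, and most also carry an octapeptide that recruits Groucho-type corepressors. Each is known for the regional identity of embryonic tissues. Pax8 acts with Nkx2-1 and Hhex in the thyroid primordium, whereas Pax9 marks the pharyngeal pouches, the sclerotome and the mesenchyme of teeth and palate.

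Values are log2 expression, and all differences are Nkx2-1 high minus Nkx2-1 low on that scale with the standard error (SE) from limma. A gene is said to rise or fall where Nkx2-1 high was above or below Nkx2-1 low with a Benjamini-Hochberg adjusted p under 0.05 over all 19938 genes. The background level was a log2 value of 4.30, set on olfactory and vomeronasal receptor rows. Nkx2-1, on which the cells were sorted, stood at 7.62, 7.77 and 7.77 in Nkx2-1 high and at 5.42, 5.23 and 5.34 in Nkx2-1 low. The labels give the cell type as ES cells, and of 10 pluripotency markers 7 were not above background in either group, Pou5f1 and Nanog among them. Sall4 and Lin28a were above it in both groups without passing the test, and Klf4, which other tissues also express, rose. Foxa2, a defining gene of endoderm, was above background in both (5.74 and 5.78), and Sox17 in neither.

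Of the 9 members, Pax8 rose, Pax9 fell and 7 did not pass the test. The call rate over all genes was 6.0% in either direction, 2.90% for rises and 3.09% for falls, and 9 members are too few to set a rate against it. At an unadjusted p under 0.05 there were 3 (with Pax3), against 19.0% of all genes. The groups did not overlap for 4 members (Pax2, Pax3, Pax8 and Pax9), against 24.7% of all genes. The median difference of the members was -0.08, against -0.0083 over all genes, and the median absolute difference was 0.11 against 0.098. In these sorted populations, fewer cells that express a gene and less RNA per cell cannot be told apart.

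**Figure D1:**
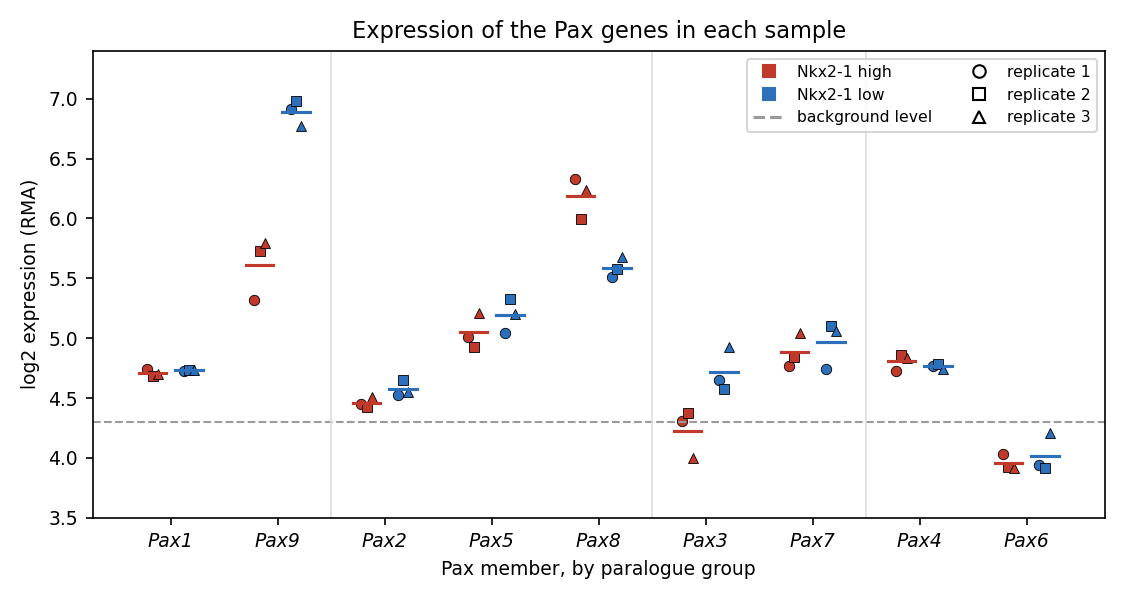
Log2 expression (vertical axis) of each Pax gene in the 3 Nkx2-1 high (red) and 3 Nkx2-1 low (blue) samples, with symbols for the replicate number, short lines for group means and the background level of 4.30 dashed. Pax9 and Pax8 show separated groups well above the dashed line, and most other members lie between 4 and 5.4 with groups that overlap or nearly touch.

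The bases before the start sites of the called pair are shown first, as a view of the sequence next to the members that differed. They are the 250 bases upstream of the RefSeq start (build GRCm38.p6), written 5′ to 3′ on the gene's strand. Capitals mark matches to TNAAGTG, a core bound by NK2-class homeodomains, searched on both strands.
Pax9 (chr12:56695221-56695470, + strand): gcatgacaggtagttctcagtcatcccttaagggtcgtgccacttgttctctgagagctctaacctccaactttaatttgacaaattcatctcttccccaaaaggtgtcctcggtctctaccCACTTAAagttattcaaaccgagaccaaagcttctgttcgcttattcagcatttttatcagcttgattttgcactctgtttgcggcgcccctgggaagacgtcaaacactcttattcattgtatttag
Pax8 (chr2:24475600-24475849, - strand): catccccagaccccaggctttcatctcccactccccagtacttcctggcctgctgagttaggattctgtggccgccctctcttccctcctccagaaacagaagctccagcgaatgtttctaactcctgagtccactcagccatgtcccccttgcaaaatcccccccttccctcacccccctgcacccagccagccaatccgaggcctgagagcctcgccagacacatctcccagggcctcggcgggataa
The Pax9 stretch held 1 match, on the reverse strand and beginning 128 bases before the start, and the Pax8 stretch held none. Such a match was found in 10.1% of all 32851 promoter stretches of that length. It was found in 1 of the 10 stretches listed for 7 Pax members (Pax1, Pax2, Pax5, Pax6, Pax7, Pax8 and Pax9). GTCACGC, a core bound by paired domains, was searched in the same way. It was found in 1 of the 10, that of Pax1, against 1.78% of all stretches, and that stretch held no TNAAGTG match. The GC content was 43.6% for Pax9 and 60.4% for Pax8, with a median of 52.4% over all stretches.

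Pax9 was the member with the largest difference. This gene of pharyngeal pouch, sclerotome, tooth and palate stood at 5.32, 5.73 and 5.79 in Nkx2-1 high and at 6.91, 6.98 and 6.77 in Nkx2-1 low. Every Nkx2-1 low sample was above every Nkx2-1 high sample, with a gap of 0.98 between the nearest 2 samples. The group means were 5.61 ± 0.26 and 6.89 ± 0.11 (SD, n = 3 each), both above the background level. Nkx2-1 high replicate 1 (5.32) lay just under the 99th percentile of the receptor rows, a log2 value of 5.33. The difference was -1.28 ± 0.13 (SE), a 2.42-fold lower level (limma adjusted p = 0.000426), and 73 of the 19938 genes had a larger absolute difference. By exact two-sided permutation p was 0.1, and with 3 samples on each side it cannot go lower. The call was kept in all 6 fits without 1 sample (differences from -1.36 to -1.13) and was lost in a test per gene without the variance pooling of eBayes (adjusted p = 0.0796).

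Pax1, the paralogue of Pax9, which acts with it in the sclerotome and the pharyngeal pouches, did not pass the test. Its values were 4.74, 4.68 and 4.70 in Nkx2-1 high and 4.73, 4.73 and 4.74 in Nkx2-1 low. The groups overlapped and the difference was -0.02 ± 0.07 (adjusted p = 0.902), with a 95% interval from -0.18 to 0.14. Its level lay close to background.

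Pax8, the factor of thyroid, kidney and inner ear that works with Nkx2-1 on thyroid genes, was 1.51-fold higher in Nkx2-1 high. It stood at 6.33, 6.0 and 6.24 there and at 5.51, 5.58 and 5.68 in Nkx2-1 low. All 3 Nkx2-1 high samples were above all 3 Nkx2-1 low samples, with a gap of 0.32 between the nearest 2. The difference was 0.60 ± 0.10 (limma adjusted p = 0.00720), and 492 genes had a larger absolute difference. The exact two-sided permutation p was again 0.1. Pax8 was also above background in Nkx2-1 low, so its signal was present in both fractions. The call was kept in all 6 fits without 1 sample (differences from 0.53 to 0.69) and lost in the test per gene without eBayes (adjusted p = 0.120).

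Its paralogues Pax2 and Pax5 did not pass. Pax2, a gene of kidney, optic stalk and midbrain-hindbrain boundary, was measured at 4.45, 4.43 and 4.51 in Nkx2-1 high and at 4.52, 4.65 and 4.55 in Nkx2-1 low. The groups were separated by 0.017, and the difference was -0.11 ± 0.08 (adjusted p = 0.488, 95% interval -0.28 to 0.06). Pax5, the gene of B cell commitment that is also expressed at the midbrain-hindbrain boundary, had values of 5.01, 4.93 and 5.21 against 5.04, 5.33 and 5.20. Those groups overlapped, and the difference was -0.14 ± 0.10 (adjusted p = 0.525, 95% interval -0.37 to 0.09). Neither interval reached the rise seen for Pax8. The group means of both genes were under 5.33, the 99th percentile of the receptor rows, and nearness to background limits what could be detected for them.

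Pax3, a gene of dorsal neural tube, neural crest and muscle progenitors, lay at the edge of the threshold. Its values were 4.31, 4.37 and 4.0 in Nkx2-1 high and 4.65, 4.57 and 4.93 in Nkx2-1 low. The groups did not overlap, and the Nkx2-1 high mean of 4.23 was under the background level while the Nkx2-1 low mean of 4.72 was above it. The Nkx2-1 low mean was 1.33-fold above the background level, and the measured difference of -0.49 ± 0.12 missed the threshold (limma adjusted p = 0.0504). Pax3 was called lower when only genes above background were tested (adjusted p = 0.0316) and with a mean-variance trend and robust eBayes (adjusted p = 0.0375), and in none of the 6 fits without 1 sample (adjusted p from 0.0679 to 0.139). Pax7, its paralogue in muscle stem cells and crest, had values of 4.77, 4.84 and 5.04 against 4.74, 5.10 and 5.06. Its groups overlapped, with a difference of -0.08 ± 0.11 (adjusted p = 0.771, 95% interval -0.34 to 0.17).

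Pax4, a gene of endocrine pancreas, and Pax6, a gene of eye, forebrain and endocrine pancreas, showed no difference past the test. Pax4 was measured at 4.73, 4.86 and 4.83 in Nkx2-1 high and at 4.77, 4.78 and 4.74 in Nkx2-1 low. Its difference was 0.04 ± 0.08 (adjusted p = 0.827, 95% interval -0.13 to 0.21). Pax6 stood at 4.03, 3.92 and 3.91 against 3.94, 3.91 and 4.21, and was the only member not above background in either group. A group mean exceeded background for 8 of the 9 members and for 67.2% of all genes. With the level at the 99th percentile of the receptor rows, a log2 value of 5.33, only Pax8 and Pax9 were above it.

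**Figure D2:**
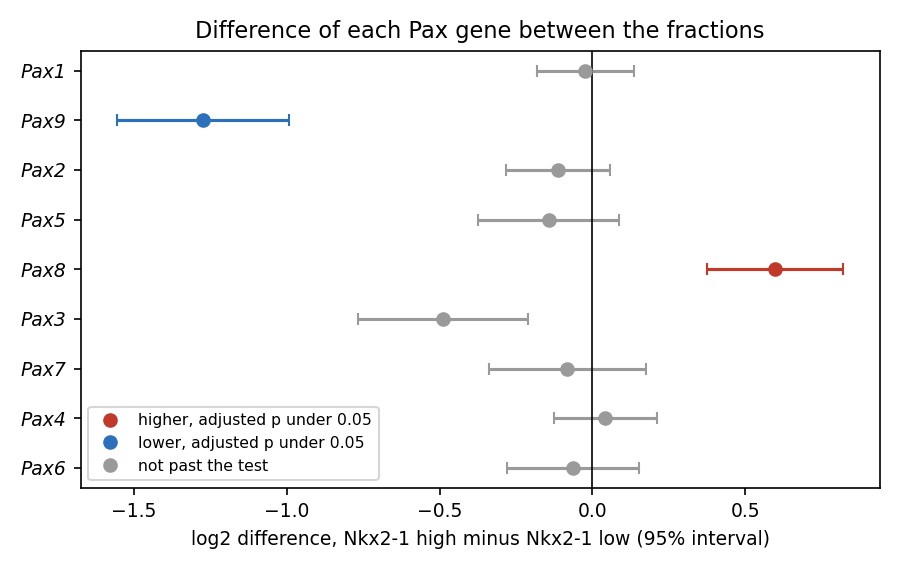
Log2 difference of each Pax gene, Nkx2-1 high minus Nkx2-1 low (horizontal axis), with the 95% interval from limma, from 3 samples in each group. Pax9 at -1.28 and Pax8 at 0.60 are coloured as called, the interval of Pax3 ends below 0 although its adjusted p of 0.0504 missed the threshold, and those of the other 6 members include 0.

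Among the samples, Nkx2-1 high replicate 1 had the highest Pax8 value (6.33) and the lowest Pax9 value (5.32) of all 6. It also had the lowest Nkx2-1 value of its group (7.62). Within Nkx2-1 high the values spanned 0.47 for Pax9, 0.37 for Pax3 and 0.33 for Pax8, and within Nkx2-1 low they spanned 0.21, 0.36 and 0.16. With 3 samples in a group no relation between these genes could be tested.

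Pax9 is the second gene on from Nkx2-1 on chromosome 12. Nkx2-9, an NK2-class homeobox gene, lies between them, and Mbip, which encodes a kinase-binding protein, lies on the far side of Nkx2-1. Differences along this stretch ran in both directions. Mbip was at 7.64, 7.71 and 7.82 in Nkx2-1 high and at 6.46, 6.37 and 6.31 in Nkx2-1 low, a rise of 1.34 ± 0.08 (adjusted p = 3.04e-05). Nkx2-9 differed by 0.46 ± 0.12 and did not pass (adjusted p = 0.0643). Beyond Pax9, Slc25a21, the gene of a mitochondrial carrier, was not above background. The endoderm factor gene Foxa1, farther on, differed by -0.41 ± 0.24 (adjusted p = 0.426). Ttc6, the gene after it and under background in Nkx2-1 high, differed by -0.89 ± 0.24 and did not pass (adjusted p = 0.0620). Nkx2-1, 2 genes from Pax9, was the gene sorted on, so its rise was set by the design. All 6 samples carry the reporter in that same block, and a part of the locus in the level of Pax9 was not tested.

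Pax1 lies in a block of similar make-up on chromosome 2, with the NK2-class genes Nkx2-4 and Nkx2-2 on one side and Foxa2 on the other. None of these passed. The differences were 0.31 ± 0.09 for Nkx2-4 (adjusted p = 0.0933) and -0.04 ± 0.10 for Foxa2 (adjusted p = 0.884). Nkx2-2, under background in Nkx2-1 low, differed by 0.14 ± 0.10 with groups that overlapped (adjusted p = 0.516). Taking the nearest measured protein-coding gene on each side of all 9 members, limma called 0 of 18 higher and 1 lower (2 and 1 before adjustment). Both shares lay near those of all genes, 6.0% and 19.0%. The one that fell was Epha4, an ephrin receptor gene next to Pax3 (-0.51 ± 0.10, adjusted p = 0.0147).

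**Figure D3:**
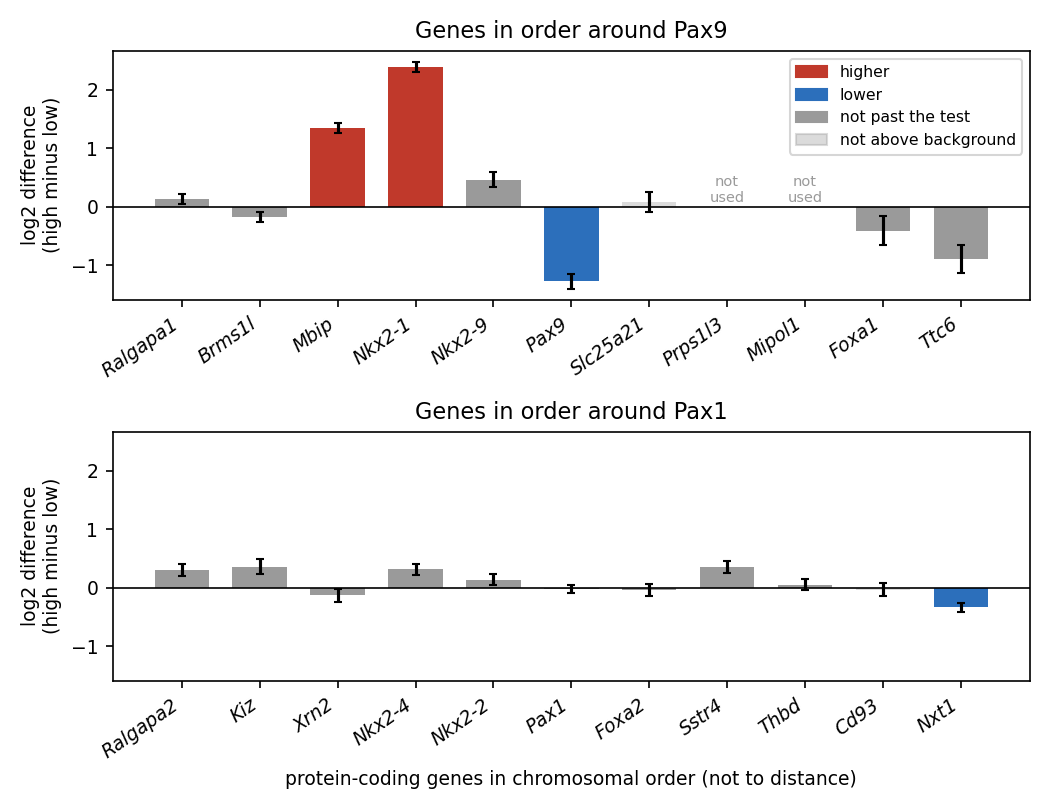
Log2 difference, Nkx2-1 high minus Nkx2-1 low, of the 5 protein-coding genes on each side of Pax9 (top) and Pax1 (bottom) in chromosomal order, with bars for the difference, SE whiskers and pale bars for genes not above background. Around Pax9 the bars go from 1.34 for Mbip and 2.39 for Nkx2-1 to -1.28 for Pax9, and around Pax1 the only called gene is Nxt1 at -0.34.

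Genes that act with Pax9 and Pax1 in skeleton, teeth and palate moved both ways, with more falls. Of 21 measured members of that list 9 fell and 3 rose, against 3.09% and 2.90% of all genes, with a median difference of -0.25 against -0.0083. The list was chosen with earlier results of these data known, so these shares are described, not tested. The activin subunit gene Inhba was 4.25-fold lower (-2.09 ± 0.17, adjusted p = 0.000121). Msx1, the homeobox partner of Pax9 in tooth mesenchyme, stood at 6.70, 6.65 and 6.51 in Nkx2-1 high and at 8.24, 8.42 and 7.99 in Nkx2-1 low (-1.59 ± 0.11, 3.02-fold lower). The groups lay far apart, in the direction of Pax9. The Wnt antagonist genes Dkk1 (-1.21 ± 0.16) and Dkk2 (-0.71 ± 0.12) fell as well. The mesenchymal factor gene Twist1 (-0.95 ± 0.12), the homeobox gene Barx1 (-0.63 ± 0.10) and Lef1, which encodes a Wnt effector (-0.59 ± 0.08), were lower too. Osr1 was lower by at least 1.38-fold, a call lost without Nkx2-1 high replicate 2 (adjusted p = 0.0708) or Nkx2-1 low replicate 3 (adjusted p = 0.0523). Tbx18 was lower by at least 1.02-fold, a call that leaving out any sample but Nkx2-1 low replicate 2 removed (highest adjusted p = 0.167).

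The 3 that rose were Bmp4, Meox1 and Sostdc1. Bmp4, a signal of dental mesenchyme and of many other tissues, stood at 8.29, 8.10 and 8.14 in Nkx2-1 high and at 7.29, 7.24 and 7.12 in Nkx2-1 low. That rise of 0.97 ± 0.09 (adjusted p = 0.000227) ran against the direction of Msx1 and Pax9. Meox1, a somite homeobox gene, rose by 1.26 ± 0.24, and did not pass without Nkx2-1 high replicate 2 (adjusted p = 0.0601). Sostdc1, the gene of a BMP and Wnt antagonist, rose by 0.62 ± 0.16, a call that leaving out any sample but Nkx2-1 low replicate 3 removed (highest adjusted p = 0.154). Meox2 (-0.69 ± 0.20, adjusted p = 0.0773) and Foxc1 (0.32 ± 0.09, adjusted p = 0.0888) did not pass. Without Nkx2-1 high replicate 2, 1 member rose in place of 3.

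The pharyngeal genes linked with Pax9 and Pax1 had 1 of 10 higher and 1 lower, against 2.90% and 3.09% of all genes. Their median difference was 0.018. The LIM-homeodomain gene Isl1 rose (1.33 ± 0.15, adjusted p = 0.000771), and Tbx1, a T-box gene of the pharyngeal endoderm and mesoderm, fell (-0.54 ± 0.12). The call of Tbx1 held only in the fits without Nkx2-1 high replicate 3 or Nkx2-1 low replicate 1 (highest adjusted p in the others 0.110). Eya1 (0.32 ± 0.10, adjusted p = 0.112) and Shh (-0.35 ± 0.18, adjusted p = 0.327) did not pass, although leaving out Nkx2-1 high replicate 3 raised the rises on the list from 1 to 2, with Eya1.

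Some markers of mesenchyme, neural crest and neurons moved with Pax9, in larger shares than the 3.09% of all genes that fell. These lists too were chosen with earlier results of these data known, so the shares are described, not tested. Msx1, Twist1 and Tbx18 are also on the list of skeleton, teeth and palate. Of 14 mesenchyme markers 9 fell and 0 rose, with 0 higher before adjustment. Vim, the brightest (0.16 ± 0.08), Dcn (0.16 ± 0.14), Twist2 (0.10 ± 0.08) and Pdgfrb (0.04 ± 0.16) differed above 0 without passing. Lum (-0.74 ± 0.22) did not pass either. None of the 14 was at background in both groups, and their summed signal, with log2 values turned back to the linear scale, was 5374 to 6476 in Nkx2-1 high and 8384 to 9779 in Nkx2-1 low. Of 9 neural crest markers 4 fell and 0 rose (0 higher unadjusted), with sums of 681 to 783 and 1627 to 1783. Those that fell were Msx1, Tfap2b, Snai2 and Crabp1, while Sox10 (0.16 ± 0.08) and Foxd3 (0.03 ± 0.10) did not pass. Tfap2a, Ednrb and Ngfr differed below 0 without passing. The brightest gene in the crest sums was Crabp1 (means 7.75 in Nkx2-1 high and 9.67 in Nkx2-1 low), so those sums say little of the dimmer markers. Of 13 neuronal markers 7 fell and 0 rose (0 higher unadjusted), with sums of 390 to 504 and 699 to 718 and Nefm not above background. Syt1 (0.03 ± 0.11) and Rbfox3 (0.06 ± 0.08) differed above 0 without passing, and Elavl3, Snap25 and Map2 below 0. Of 14 definitive endoderm markers 1 fell, Epcam, and 0 rose (1 higher and 3 lower unadjusted), with a median difference of -0.079. Their sums overlapped at 937 to 1028 and 892 to 1017, and Foxa3 and Sox17 were not above background. The brightest gene in the endoderm sums was Cxcr4 (means 9.17 in Nkx2-1 high and 8.91 in Nkx2-1 low, not past the test), so they say little of the dimmer markers. The part of these cell types in the level of Pax9 was not tested.

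Of the genes that work with Pax8 in the thyroid, 12 were measured apart from Nkx2-1 itself. A group mean was above background for 5 of them, and 7 were not above background in either group. Of the 12, limma called 1 higher and 0 lower (3 and 0 before adjustment), against 2.90% and 3.09% of all genes called. The median difference, most of it over rows at background, was 0.14. The one that rose was Hhex, a homeobox gene of the early thyroid and liver buds, at 5.95, 5.54 and 5.55 in Nkx2-1 high and 4.58, 5.02 and 4.49 in Nkx2-1 low. Those groups did not overlap (0.98 ± 0.15, adjusted p = 0.00538). Slc5a5, the iodide transporter gene that Pax8 is known to activate, differed by 0.27 ± 0.09 (adjusted p = 0.148), and the cadherin gene Cdh16 by 0.17 ± 0.10 (adjusted p = 0.418). Foxe1, above background in both groups (6.70 and 6.53), differed by 0.16 ± 0.09 and did not pass (adjusted p = 0.399). The late thyroid genes Tg, Tshr, Duox2 and Iyd were not above background in either group.

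Genes of the kidney and inner ear, where Pax8 and Pax2 also act, went both ways. Of 17 measured 2 rose and 2 fell, against 2.90% and 3.09% of all genes. Gata3, a zinc-finger factor gene of the nephric duct and ear that lies downstream of Pax2 and Pax8 in kidney, stood at 8.27, 8.10 and 7.81 in Nkx2-1 high and at 7.33, 7.37 and 7.15 in Nkx2-1 low (0.78 ± 0.12, adjusted p = 0.00488). Wt1, a kidney and gonad factor gene, rose by 0.48 ± 0.08 (adjusted p = 0.00697). Osr1, also on the list of skeletal genes, fell, and Hoxd11 fell by 0.60 ± 0.12 on the log2 scale, a call kept only when Nkx2-1 low replicate 3 was the sample left out (highest adjusted p in the other fits 0.0771). Sall1 (-0.45 ± 0.19, adjusted p = 0.245) did not pass. Endothelial and blood markers moved with Pax8 in 2 of 9 cases (Tek and Flt4 rose, 0 fell, 1 lower unadjusted), with sums of 250 to 261 against 198 to 203. Their median difference was 0.029. Of the others above background, Kdr (-0.08), Flt1 (-0.12) and Tie1 (-0.19) were below 0 and Pecam1 (0.33) and Gata1 (0.15) above it, none past the test. Cdh5 and Ptprc were not above background, and the part of such cells in the level of Pax8 was not tested.

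At the midbrain-hindbrain boundary, where Pax2, Pax5 and Pax8 are expressed together, limma called 2 of 13 linked genes lower and 0 higher (3 and 4 before adjustment). The shares of all genes were 3.09% and 2.90% (19.0% in either direction before adjustment). The 2 linked genes that fell were En2, an engrailed homeobox gene, and Cnpy1, a gene of FGF signalling at that boundary. En2 was measured at 5.03, 4.94 and 5.42 in Nkx2-1 high and at 6.06, 6.03 and 6.35 in Nkx2-1 low (-1.02 ± 0.13, adjusted p = 0.00229). Cnpy1 stood at 4.76, 4.99 and 5.74 against 6.44, 6.58 and 6.78 (-1.44 ± 0.22, adjusted p = 0.00422). Both groups were separated for both genes, which lie side by side on chromosome 5 with 0 protein-coding genes between them. Otx2, the forebrain and midbrain homeobox gene, had a difference of 1.04 ± 0.28 that did not pass (adjusted p = 0.0664). Rises on the list went from 0 to 1, with Otx2, on leaving out Nkx2-1 high replicate 1 or Nkx2-1 low replicate 3, and the list also had 1 rise with both samples numbered 3 left out, with array weights and with only genes above background. Wnt1, under background in Nkx2-1 low, differed by 0.53 ± 0.31 with overlapping groups and did not pass either (adjusted p = 0.417). It had 1 high value in Nkx2-1 high replicate 3 (5.67 against 4.30 and 4.35). Of 9 measured B cell genes, the other setting of Pax5, limma called 0 higher and 0 lower (2 and 1 before adjustment). Cd79a, Blnk, Rag1, Rag2 and Ptprc were not above background.

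The homeobox genes Six2 to Six6, the coactivator genes Eya1 to Eya4 and the corepressor genes Dach1 and Dach2 belong to families that form a network with Pax factors in eye, ear, kidney and muscle. Of 11 measured, limma called 4 lower and 0 higher (5 and 2 before adjustment), against 3.09% and 2.90% of all genes called. The median was -0.22. The homeobox gene Six4 stood at 7.42, 7.34 and 6.81 in Nkx2-1 high and at 8.0, 8.13 and 7.82 in Nkx2-1 low (-0.79 ± 0.15, adjusted p = 0.0151). Eya4, which encodes a coactivator phosphatase (-0.48 ± 0.09), the corepressor gene Dach1 (-0.41 ± 0.08) and Six2, a gene of nephron progenitors and facial mesenchyme (-0.40 ± 0.07), fell by less. Their groups did not overlap, and none of these calls held whichever sample was left out. Without Nkx2-1 high replicate 2, Dach1 (adjusted p = 0.0669) and Six2 (adjusted p = 0.0586) were lost. Without Nkx2-1 low replicate 2, Six4 (adjusted p = 0.0646) and Eya4 (adjusted p = 0.0598) were lost. Six4 was also lost without Nkx2-1 low replicate 1 (adjusted p = 0.0587), and Eya4 without Nkx2-1 low replicate 3 (adjusted p = 0.0544). Six6, under background in Nkx2-1 high, differed by -0.31 ± 0.17 with overlapping groups and did not pass (adjusted p = 0.363).

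Of 15 genes linked with Pax3 and Pax7 in neural crest 4 fell and 1 rose, against 3.09% and 2.90% of all genes. Besides Msx1 and Twist1, which are also on the list of Pax9, those that fell were Tfap2b and Snai2. Tfap2b, an AP-2 factor gene, was lower by at least 1.35-fold, and Snai2 is a gene of crest emigration (-0.65 ± 0.15). Leaving out any sample but Nkx2-1 low replicate 3 removed the call of Snai2 (highest adjusted p = 0.122). Mitf, the melanocyte and eye factor gene that Pax3 is known to activate in melanocytes, went the other way at 5.36, 5.55 and 5.31 in Nkx2-1 high and 4.49, 4.45 and 4.82 in Nkx2-1 low (0.82 ± 0.11, adjusted p = 0.00280). Ednrb (-0.38 ± 0.17) and Tfap2a (-0.24 ± 0.16) did not pass. On the muscle list limma called 1 of 12 higher, Meox1, and 0 lower (2 and 2 before adjustment). On leaving out Nkx2-1 high replicate 2 that count of rises was 0, on leaving out Nkx2-1 high replicate 3 it was 2, and the myogenic genes Myf5 and Myf6 were not above background.

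Some genes of eye, neural tube and pancreas, where Pax6 and Pax4 act, passed the test. Over all genes 2.90% rose and 3.09% fell. Of 14 eye genes 3 rose and 0 fell (0 lower unadjusted). They were Maf, a lens and lymphoid factor gene (0.88 ± 0.08, adjusted p = 0.000265), Mitf, and the eye-field gene Rax, higher by at least 1.32-fold. Rax lost its call without Nkx2-1 low replicate 1 (adjusted p = 0.0624) or Nkx2-1 low replicate 2 (adjusted p = 0.0630). Of 17 genes of forebrain and neural tube 1 rose, the homeobox gene Nkx6-1 (0.87 ± 0.10, adjusted p = 0.000891), and 1 fell, Fabp7, a radial glia gene (-0.60 ± 0.14). The call of Fabp7 held only in the fits without Nkx2-1 high replicate 3 or Nkx2-1 low replicate 1 (highest adjusted p in the others 0.147). Of 13 pancreas genes 3 rose and 1 fell. Isl1, Nkx6-1 and the somatostatin gene Sst (1.11 ± 0.16, adjusted p = 0.00320) were the rises, and Neurod1, which was not above background, the fall. That call was lost without Nkx2-1 high replicate 2, Nkx2-1 low replicate 1 or Nkx2-1 low replicate 3 (highest adjusted p = 0.0707). The defining pancreas genes Pdx1, Neurog3 and Ptf1a were not above background.

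Of 17 measured cofactors of Pax proteins, the corepressors of the Groucho family and the PTIP methyltransferase complex, limma called 1 higher and 0 lower (2 and 3 before adjustment). The share called, 5.9%, lay near the 6.0% of all genes. Tle1, a Groucho corepressor gene, stood at 7.24, 7.39 and 7.42 in Nkx2-1 high and at 6.88, 6.75 and 7.0 in Nkx2-1 low (0.47 ± 0.09, adjusted p = 0.0156). It did not pass without Nkx2-1 high replicate 2, Nkx2-1 low replicate 1 or Nkx2-1 low replicate 2 (highest adjusted p = 0.0727). Tle2 (0.28 ± 0.08, adjusted p = 0.0839) and Paxip1, which encodes PTIP (-0.26 ± 0.08, adjusted p = 0.111), did not pass. None of the 17 was at background in both groups.

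**Figure D4:**
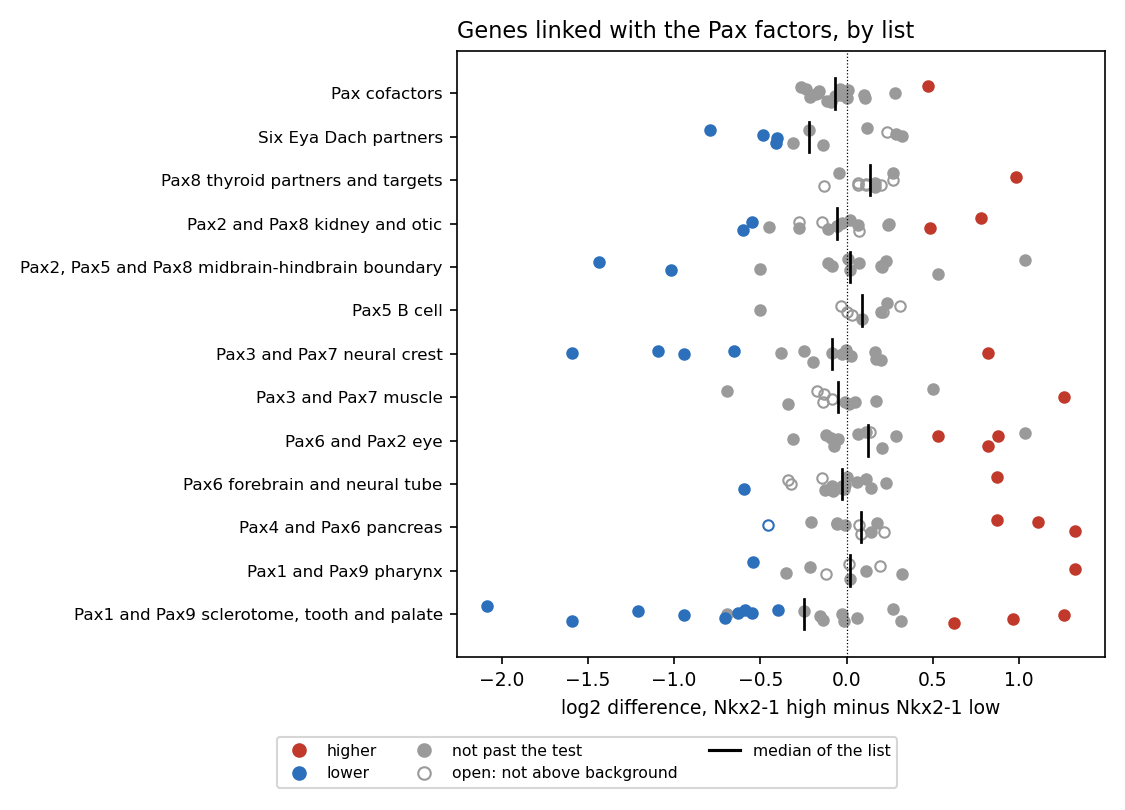
Log2 difference, Nkx2-1 high minus Nkx2-1 low (horizontal axis), of the genes linked with Pax factors, 1 point per gene and 1 line per list, with the median of each list as a black bar, called genes in colour and open points for genes not above background (Nkx2-1 left out). The list of sclerotome, tooth and palate spreads from -2.09 for Inhba to 1.26 for Meox1, while the B cell list holds no called gene.

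The genes whose profile over the 6 samples was most like that of each Pax member were sought among 12597 genes above background. Predicted genes, unnamed clones, small RNAs and chemosensory receptors were left out of that search. For Pax8 they were Hap1, which encodes a huntingtin-associated protein (Pearson r = 0.996), Il9r (r = 0.995) and Rin3 (r = 0.992), and Hap1 (0.51 ± 0.10) and Rin3 (0.32 ± 0.08) rose. For Pax9 they were Gtpbp1 (r = 0.997), the growth cone gene Gap43 (r = 0.997) and Kansl2 (r = 0.995), and Gap43 fell (-0.89 ± 0.11). For Pax3 they were Saal1 (r = 0.995), Banf1 (r = 0.992) and the leptin receptor gene Lepr (r = 0.991), of which Lepr fell. For the other 5 members above background the closest gene was Gpbar1 for Pax1 (r = 0.992), Rad51b for Pax2 (r = 0.991), Mansc4 for Pax4 (r = 0.985), Pla2g2d for Pax5 (r = 0.986) and Npc1l1 for Pax7 (r = 0.985), and none of these passed the test. The values of Pax1, close to background, spanned only 0.058 within Nkx2-1 high and 0.0090 within Nkx2-1 low, so its match rests on very small differences. The points of each correlation share the same 6 arrays and the same 2 groups, and the highest values out of so many genes are described, not tested.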

How the data were processed

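Total RNA of 6 sorted samples was amplified (WT-Ovation Pico), labelled with biotin and hybridised to Affymetrix arrays, per the labels' protocols. Amplification can change relative signals. The authors deposited log2 values from RMA, which is named in the submitters' processing notes and subtracts background, equalises arrays and summarises probes. The log2 scale was taken from RMA and the values (array medians 4.98 to 5.06). For RMA's version and the genome build, the entry is: not given in the sources used here. Detection calls, scanner files and array batches were not analysed here, and the number of arrays limits the precision.

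GEO's platform annotation paired 21789 of 29011 rows with 1 symbol, 1621 with several and 5601 with none. The brightest row per gene was kept. Background was the 95th percentile of values of 1210 chemosensory receptor rows. For a called gene, a fold against a group under it is written "at least".

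The comparison used limma 3.58.1 under R 4.3.3, with lmFit and eBayes on all 6 samples and group as only term, and was tested on simulated data. The Pax members, the linked lists and the markers were chosen with earlier results of these data known. Named are all members, up to 4 called and 2 uncalled genes per list, nearest neighbours and the 3 most alike genes. Others were chosen after their values were seen. Of 9 members, 7 had sequences in the RefSeq promoter table. Alternatives were other scalings (median, cyclic loess), background filters, variance models, a replicate block, row rules and leaving out samples.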

Additional observations from a re-analysis of the deposited data

How the results depend on the processing

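Pax8 kept its direction and call in 15 of 16 alternatives (0.53 to 0.69, adjusted p 0.00301 to 0.0348), as did Pax9 (-1.42 to -1.13, adjusted p 6.71e-05 to 0.00361). The exception for both was the test per gene without eBayes, with 0 Pax members called higher, 0 called lower and 89 genes called in all. Members called lower were 2 with only genes above background and 2 with a mean-variance trend and robust eBayes, where Pax3 was added at an unchanged difference. Without 1 sample, the members called stayed at 1 higher and 1 lower, and the genes called in all ran from 624 to 1086, against 1196. The difference of Pax6, not called, ran from -0.12 to 0.030 without 1 sample, above 0 without Nkx2-1 low replicate 3, and was 0.052 without both samples numbered 3. The cause was not tested. With the background level at the 99th percentile, 2 members were above it in place of 8. Samples with the same replicate number correlated in their deviations at 0.18, -0.0041 and 0.28. Nkx2-1 high replicate 1 with Nkx2-1 low replicate 3 gave -0.19, and Nkx2-1 high replicate 3 with Nkx2-1 low replicate 1 gave -0.27. Nkx2-1 high replicate 2 correlated best with Nkx2-1 low replicate 1 (0.15). The labels state no pairing, so the main test used none, and a shared effect of the replicate number was not tested. With a replicate block the members called were 1 higher (Pax8, adjusted p = 0.00758) and 1 lower (Pax9, adjusted p = 0.000543), and 1470 genes were called in all. Of the list genes named as not passing, the block called Otx2 (adjusted p = 0.00189) higher and Meox2 (0.00196), Sall1 (0.00992), Ednrb (0.0307) and Shh (0.0418) lower, and it removed no call of a list gene named as passing. Of 448 list counts under alternatives, 377 stayed within 1.5 times the main count, 23 were higher and 48 lower. The 6 arrays and rows near background limit what could be detected for Pax1 to Pax7.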
